A study of Mus musculus with 3 samples.

Results

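Stmn2, Tubb2b, Scn3a, Cpe, Cd200, Pcdh17 and Lrp8 are the 7 genes described here, chosen as a fixed list of genes of maturing neurons among the 296 genes counted. They were followed in 3 sagittal sections of wild-type whole mouse embryos: 1 section of an E15.5 embryo, and 2 sections from 2 separate E9.5 embryos, called E9.5 section 1 and E9.5 section 2. The RNA was read by MERFISH on the Vizgen MERSCOPE platform, which images barcoded probes in the tissue and assigns decoded molecules to segmented cells. No section was treated, and all carry the same genotype.

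A cell was kept if it had at least 10 panel counts. This kept 195915 of 219525 cells at E15.5, and 830 of 1077 and 6334 of 6835 cells in E9.5 sections 1 and 2. The kept cells held 21227345, 68572 and 1034730 counts, with medians of 84, 61 and 128 counts per cell. The kept cells spanned 6050 by 8691 µm at E15.5. In E9.5 sections 1 and 2 they spanned 966 by 377 µm and 1786 by 1614 µm. E9.5 section 1 thus covers a smaller area and may hold fewer parts of the embryo. The sections shared 0 cell identifiers. A count of at least 1 of the 7 genes was found in 104481 cells of the E15.5 section (53.3%), 223 cells of E9.5 section 1 (26.9%) and 2691 cells of E9.5 section 2 (42.5%).

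A young neuron extends an axon on a cytoskeleton of microtubules, fits its membrane with sodium channels and adhesion proteins, and begins to package secreted peptides. Stmn2 encodes stathmin-2, which binds tubulin in growing axons, and Tubb2b encodes a beta-tubulin of the developing nervous system. Scn3a encodes the voltage-gated sodium channel Nav1.3, known from embryonic neurons, and Cpe encodes carboxypeptidase E, which trims the precursors of neuropeptides and hormones in secretory granules. Cd200 is a surface glycoprotein that neurons share with several other cell types and that binds a receptor on myeloid cells. Pcdh17 is a protocadherin of cell-cell adhesion, and Lrp8 is a receptor for Reelin, a secreted protein that guides the placing of neurons.

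The windows around the transcription starts of Cd200, Pcdh17 and Lrp8 are given to show what sequence lies at the starts of members that followed the same map at E15.5; the assay itself read RNA, not promoters. Sequences are RefSeq's, build GRCm38.p6, and each holds 250 bases before to 50 after the start, 5′ to 3′ on the strand of the gene. For Lrp8 the table holds 3 windows and the first listed is shown. RefSeq's table matched 3 of the 7 members. Capitals mark the E-box CANNTG, the letters that basic helix-loop-helix factors of neurons are known to bind, searched on both strands, where it reads the same.
Cd200, chr16:45409004-45409303, minus strand: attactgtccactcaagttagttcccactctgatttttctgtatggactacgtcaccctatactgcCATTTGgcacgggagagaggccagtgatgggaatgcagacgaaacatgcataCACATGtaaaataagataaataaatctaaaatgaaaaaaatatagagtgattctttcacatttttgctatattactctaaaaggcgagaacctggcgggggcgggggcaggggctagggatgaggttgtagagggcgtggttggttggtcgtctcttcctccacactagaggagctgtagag
Pcdh17, chr14:84443313-84443612, plus strand: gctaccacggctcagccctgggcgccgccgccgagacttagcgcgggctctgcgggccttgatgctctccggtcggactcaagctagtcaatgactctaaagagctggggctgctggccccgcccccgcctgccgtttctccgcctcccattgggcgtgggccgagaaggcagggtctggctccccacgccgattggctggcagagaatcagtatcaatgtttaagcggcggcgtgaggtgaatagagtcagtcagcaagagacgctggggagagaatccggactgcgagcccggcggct
Lrp8, chr4:107802635-107802934, plus strand: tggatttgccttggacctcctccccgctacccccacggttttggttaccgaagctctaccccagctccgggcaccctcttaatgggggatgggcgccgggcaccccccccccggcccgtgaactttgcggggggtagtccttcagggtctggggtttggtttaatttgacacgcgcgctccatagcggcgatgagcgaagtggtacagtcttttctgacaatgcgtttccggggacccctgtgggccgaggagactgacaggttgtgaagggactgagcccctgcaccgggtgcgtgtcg
The Cd200 window holds 2 E-boxes and the Pcdh17 and Lrp8 windows hold 0, against 72.3% of all 32851 windows of 300 bases with at least 1. GC made up 45.0% of the Cd200 window, 65.0% of the Pcdh17 window and 62.7% of the Lrp8 window. A match is only a run of letters, and a window without one says nothing about any factor.

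Noise was read from 19 blank codes, barcodes given to no probe. Levels are given as CPM, the counts of a gene scaled to the same total of panel counts. The mean blank code had 159 CPM at E15.5, 239 CPM in E9.5 section 1 and 149 CPM in E9.5 section 2. The highest blank codes had 449, 685 and 380 CPM. All 7 members stood above every blank code at E15.5. At E9.5 this held in both sections for Stmn2, Tubb2b, Cpe and Lrp8, and in section 2 alone for Pcdh17. CPM is a level within 1 gene across cells and sections; probes differ in number and brightness between genes, so levels are not set against each other between genes.

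Both E9.5 sections held large areas with few counts of Gnas, which encodes a G protein subunit used by most cells. Cells whose 20 nearest neighbours and themselves held under 1% Gnas counts made up 0.521% of cells at E15.5, 53.0% in E9.5 section 1 and 45.0% in E9.5 section 2. Of the 296 genes, 103 were at least 2-fold apart between those areas and the other cells in the same direction in both E9.5 sections, with 53 lower and 50 higher in the low-Gnas areas. Tubb2b was 10.1-fold and 11.3-fold lower in the low-Gnas areas of E9.5 sections 1 and 2. It held 4 and 39 counts there, or 141 and 101 CPM, under the mean blank code of those areas (293 and 189 CPM). These folds thus end at noise and do not measure a fold of Tubb2b RNA. Cpe was 4.45-fold and 2.73-fold higher there, and Stmn2 2.42-fold and 2.22-fold higher. The part of these areas in the E9.5 results was not tested. Section levels, the tests, tile correlations, gate levels and the main E9.5 cluster levels are also given outside them, while shares of cells and members per cell are given over all kept cells.

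In the sections as a whole, the members were high at E15.5 and low at E9.5, with the widest gap for Stmn2 and the narrowest for Lrp8. Together they took 5.69% of the counts at E15.5, 0.451% in E9.5 section 1 and 0.466% in E9.5 section 2. Stmn2 had 28052 CPM at E15.5, against 831 and 564 CPM in E9.5 sections 1 and 2, which was 33.7 and 49.7 times as much. Tubb2b had 13861 CPM at E15.5, against 890 and 757 CPM. Its E9.5 levels were 3.71 and 5.07 times the mean blank code, so it was above noise at both stages.

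Scn3a had 1484 CPM at E15.5, against 87.5 and 127 CPM at E9.5. In E9.5 section 1 these were 6 counts in all, in section 2 they were 131, and both levels lay under the mean blank code of their section. Summed over whole sections, Scn3a was thus not detectable above noise at E9.5 at this depth.

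Cpe had 5786 CPM at E15.5, against 1210 and 1368 CPM at E9.5. Cd200 had 2483 CPM at E15.5, against 510 and 299 CPM, with 2 of the 19 blank codes above it in each E9.5 section. Both genes were lower in every E9.5 section than at E15.5.

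Pcdh17 had 2818 CPM at E15.5, against 277 and 574 CPM at E9.5; in E9.5 section 1 it held 19 counts and 7 blank codes lay above it. Lrp8 had 2376 CPM at E15.5, against 700 and 975 CPM at E9.5. Lrp8 was thus 3.39 and 2.44 times as high at E15.5, the smallest step of the 7.

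Outside the low-Gnas areas the E9.5 levels of all 7 members were still below those at E15.5. Stmn2 had 523 and 388 CPM there in E9.5 sections 1 and 2, so that the E15.5 level was 53.7 and 72.3 times as high. Tubb2b had 1419 and 1146 CPM there, and the E15.5 level was 9.77 and 12.1 times as high. For Cpe, with 498 and 831 CPM, the ratios were 11.6 and 6.96. Pcdh17 had 349 and 490 CPM there, Cd200 747 and 336 CPM, and Lrp8 797 and 816 CPM. For Lrp8 the ratios were 2.98 and 2.91. In E9.5 section 1 these levels rest on 21 counts of Stmn2, 20 of Cpe and 14 of Pcdh17. The mean blank code had 202 CPM there, and these levels lie under the highest blank code of the whole section (685 CPM). In E9.5 section 2 Stmn2 lay near the highest blank code of the whole section (380 CPM). The ratios of these genes are thus taken to levels near noise.

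**Figure D1:**
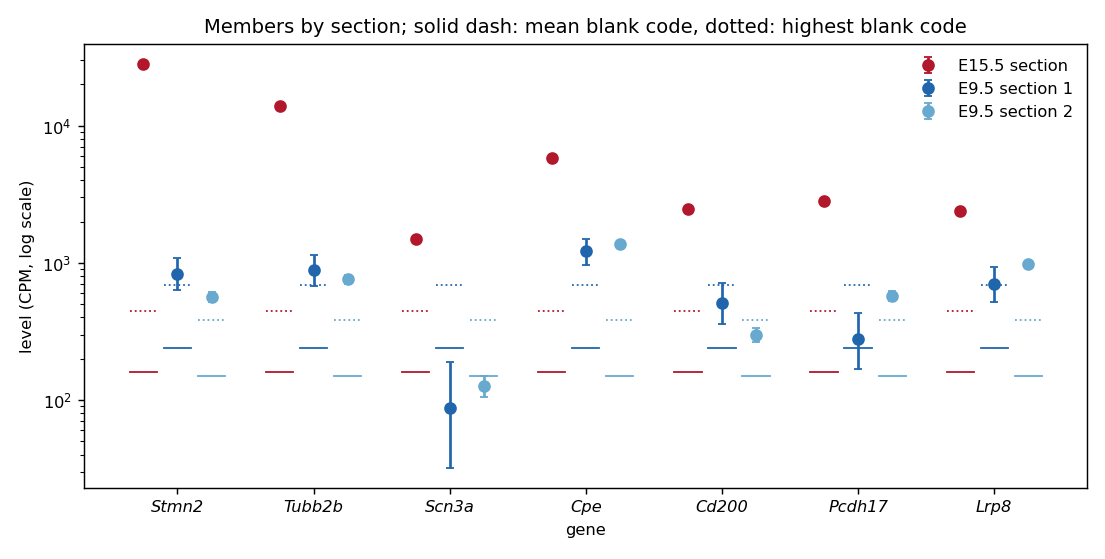
Level of each member in CPM (log axis) in the E15.5 section and the 2 E9.5 sections, with 95% Poisson intervals of the counts; solid dashes show the mean blank code and dotted dashes the highest one. All 7 points of the E15.5 section lie above all E9.5 points of the same gene, and the Scn3a points of both E9.5 sections lie under the mean of the blank codes.

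edgeR's quasi-likelihood test over the 3 section sums called 6 of the 7 members higher at E15.5, where 9.46% of the 296 genes tested were called higher and 5.41% lower. Stmn2 was higher by 5.36 ± 0.63 on the log2 scale (SE, n = 1 section at E15.5 and 2 at E9.5), with an adjusted p of 2.0e-13. The log2 difference was 4.09 ± 0.68 for Tubb2b, 2.70 ± 0.96 for Pcdh17, 2.66 ± 0.98 for Cd200 and 2.18 ± 0.78 for Cpe. For Scn3a the fitted 3.74 ± 1.03 is a difference from counts not above the blank codes at E9.5, so it does not measure a fold of Scn3a RNA. Their adjusted p was 4.3e-07 for Tubb2b, 0.0086 for Scn3a, 0.041 for Pcdh17, 0.047 for Cd200 and 0.043 for Cpe in edgeR. Lrp8 missed the threshold with 1.51 ± 0.94 and an adjusted p of 0.34 in edgeR; DESeq2 called it, with an adjusted p of 0.0083, where it called 31.1% of genes in either direction, as many higher as lower. The median of the 7 differences was 2.70, and the median of all genes tested was -0.15. The 7 genes were chosen with earlier results of these data known, so setting them against all genes is a description only.

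E15.5 is a single section, so its own spread enters the test only through the E9.5 pair, with 1 residual degree of freedom; the smallest p that exact permutation of 3 sections allows is 0.333. With cell volume in place of counts as the scale, 2 members were called (Stmn2 and Scn3a), where 3.38% of genes were called higher. With the mean blank code subtracted 3 were called (Stmn2, Tubb2b and Scn3a), where 5.28% of genes were called higher. That step left no Scn3a counts in either E9.5 section, since its 6 and 131 counts lay under the mean blank code (16.4 and 154 counts). The Scn3a call there thus rests on the subtraction. Without E9.5 section 1 the log2 difference of Cd200 was 3.25, and without E9.5 section 2 that of Pcdh17 was 3.38, both with no test. With cells of at least 30 counts, Cpe missed with an adjusted p of 0.058. Without the E9.5 low-Gnas areas 5 members were called, where 5.41% of genes were called higher, Cd200 missed with an adjusted p of 0.113, and the log2 difference of Tubb2b was 3.37 and that of Cpe 3.02. A section sum cannot tell more cells of a type from more RNA per cell. E9.5 section 1 also spans a smaller area than E9.5 section 2, so the 2 E9.5 sums may hold different tissues.

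Of the 46 other nervous-tissue genes listed beside them, 14 were in the panel, and their stage differences went both ways. Fabp7 (3.80 on the log2 scale), which binds fatty acids in radial glia, Rgs4 (2.66) and Spock2 (2.46) rose, while Prtg (-5.83), Lin28a (-6.05) and Tmem108 (-2.63) fell; the other 8 did not pass the test. The list's median difference was 0.02. Reln, which encodes the ligand of Lrp8, had 3905 CPM at E15.5, against 715 and 1290 CPM at E9.5, and did not pass the test (adjusted p = 0.116, edgeR). Scn7a was the single other sodium channel of the list in the panel and had 519 CPM at E15.5, against 671 and 363 CPM at E9.5.

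The share of cells with a count was also higher at E15.5. Stmn2 was counted in 29.0% of kept cells at E15.5, against 6.14% and 7.40% in E9.5 sections 1 and 2. With every cell thinned to 50 counts, which left out 59914, 336 and 1261 shallower cells, the shares were 26.7%, 4.86% and 3.25%. Tubb2b came to 24.9% at E15.5 after thinning, against 4.66% and 3.02% at E9.5. For Scn3a the thinned shares were 6.68% at E15.5, 0 of 494 cells in E9.5 section 1 (exact 95% upper bound 0.744%) and 0.532% in E9.5 section 2. In cluster 1 of the E15.5 section, which is led by Car2 and Rgcc and had the lowest Stmn2 level of the clusters described further on, 0.708% of cells held a Stmn2 count at a median of 42 counts per cell.

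Cells with counts of all members were found in the E15.5 section. All 7 genes were counted together in 4782 cells of the E15.5 section (2.44%), against 0 of the 830 and 0 of the 6334 cells of E9.5 sections 1 and 2. At least 20 Stmn2 counts were found in 9590 cells at E15.5 (4.89%). In the E9.5 sections 0 cells reached 10 Stmn2 counts, and 7 cells of section 2 and 0 of section 1 reached 5.

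In space, the members of the E15.5 section shared 1 large territory. Tiles of 100 µm with at least 500 counts numbered 3047, and 652 of them (21.4%) were above the section's own Stmn2 level. These tiles held 27.4% of the cells and 95.9% of the Stmn2 counts. They formed 15 patches of touching tiles, the largest with 578 tiles and 48369 cells, spanning 0.9 to 5.4 mm across and 4.6 to 8.6 mm down the imaged field of 6.05 by 8.69 mm.

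Outside the patches the other members fell off to different degrees. Tubb2b had 50430 CPM inside and 1449 CPM outside, a ratio of 34.8, and Scn3a had 5372 CPM inside and 168 CPM outside, a ratio of 32.0 that ends at the level of the blank codes (168 CPM outside). Cd200 was 11.3 times and Cpe 10.7 times as high inside. Pcdh17 was 8.97 times and Lrp8 8.48 times as high inside. Of the Pcdh17 counts, 75.2% lay in the patches, as did 74.2% of the Lrp8 counts and 92.2% of the Tubb2b counts. The patches were drawn from Stmn2 itself, so its own ratio is no finding.

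**Figure D2:**
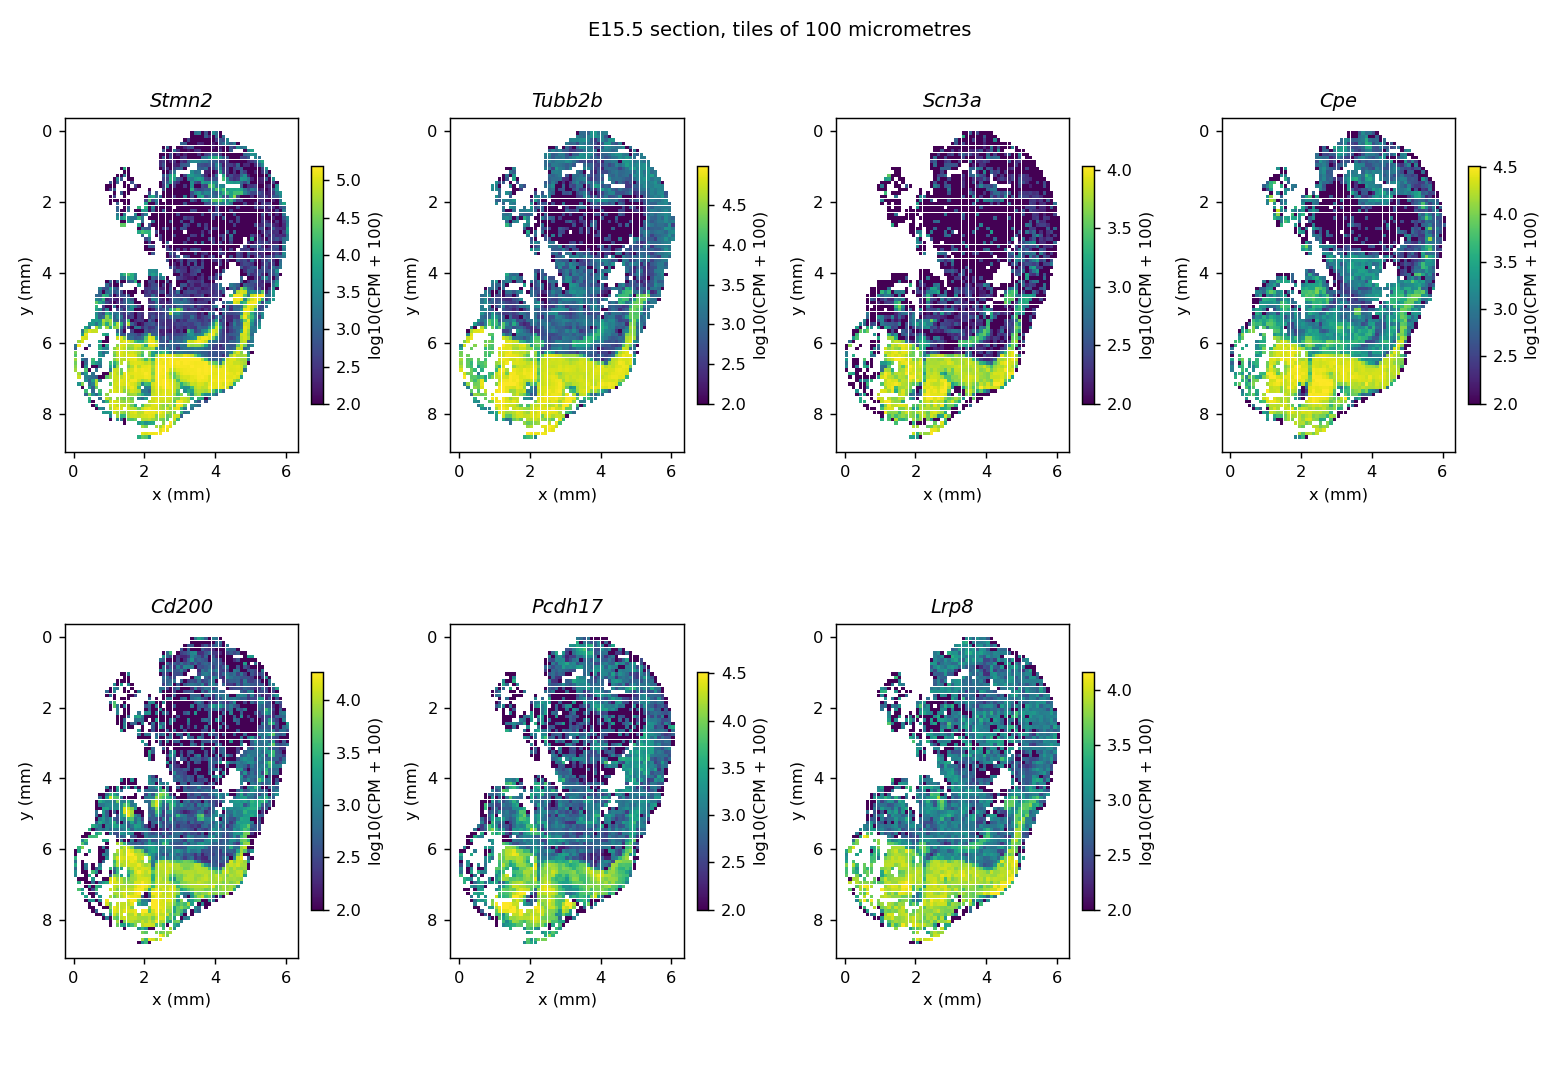
Maps of the E15.5 section in tiles of 100 µm, one panel per member, coloured by log10(CPM + 100), with x and y in mm from the corner of the imaged field. The same large territory at 4.6 to 8.6 mm is bright in all 7 panels, and Cpe, Cd200 and Pcdh17 show further tiles at middle levels outside it.

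Within the largest patch, Pcdh17 varied more than the other members not used to draw it. Over 9 blocks of 1 mm, Lrp8 ranged 1.74-fold, Cpe 2.78-fold, Tubb2b 2.86-fold, Scn3a 3.12-fold and Cd200 3.36-fold. Pcdh17 ranged 5.43-fold, between 3229 and 17537 CPM. Stmn2 lay between 91935 and 130841 CPM, a range that the choice of tiles narrows, since low Stmn2 tiles were left out. The block at 4 to 5 mm across and 5 to 6 mm down was the lowest for all members except Stmn2. Pcdh17, Tubb2b, Cd200 and Lrp8 were highest in the block at 1 mm across and 7 mm down, where Meis2, a homeobox gene, was at its lowest of 5372 CPM. In the block at 4 mm across and 6 mm down, which had the most Hoxa5 (38139 CPM) and the most Reln (41153 CPM), Lrp8 had 8962 CPM.

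Smaller patches had other mixtures. Patches 2 and 3 by size, of 24 and 12 tiles, had 36848 and 47779 CPM of Hand2, a transcription factor of sympathetic neurons and of heart and limb, against 167 CPM in the largest patch. Their Stmn2 levels of 86032 and 115281 CPM were close to the 109561 CPM of the largest patch. Tubb2b was at 7608 and 10583 CPM there, against 56340.5 CPM in the largest patch, and Pcdh17 at 541 and 880 CPM, against 9483 CPM. The other members were lower in the Hand2-rich patches too. Cpe had 3370 and 4276 CPM there, against 20053 CPM in the largest patch, and Cd200 1021 and 1462 CPM, against 8752 CPM. Scn3a had 2274 and 2717 CPM, against 5856 CPM, and Lrp8 2591 and 3797 CPM, against 7558 CPM. A patch of 11 tiles, numbered 4 by size, had 83736 CPM of Stmn2 and 55341 CPM of Tubb2b with 1062 CPM of Pcdh17 and 31002.5 CPM of Reln.

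Across the 3047 tiles of the E15.5 section, every pair of members was positively correlated on the log2(CPM + 100) scale, with Pearson's r between 0.56 and 0.82 and a median of 0.69 over 21 pairs. Stmn2 with Tubb2b gave the highest value (0.82) and Pcdh17 with Lrp8 the lowest (0.56). The tiles share 1 section and the scale is relative, so these values are a description; with the mean of the blank codes, Stmn2 gave -0.14 and the other members values between -0.07 and -0.01. At E9.5 the 21 pairs had both signs. In E9.5 section 2 (142 tiles) r lay between -0.15 and 0.46 with a median of 0.06, and 13 pairs were above 0; Stmn2 with Cpe gave the highest value and Stmn2 with Tubb2b the lowest. Outside the low-Gnas areas (118 tiles) the range was -0.11 to 0.41, Stmn2 with Cpe gave 0.39, Cpe with Lrp8 0.41 and Stmn2 with Tubb2b 0.10. In E9.5 section 1 (26 tiles) r lay between -0.58 (Tubb2b with Cpe) and 0.59 (Tubb2b with Cd200), with Stmn2 and Cpe at 0.37 and Stmn2 and Tubb2b at -0.45. Outside the low-Gnas areas of that section (16 tiles) the range was -0.71 to 0.62.

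The non-member genes most like the members across the E15.5 tiles were few. Spock2 (0.77) and Actg1 (0.73) were closest to Stmn2. Tspan7 and Spock2 were closest to Tubb2b (0.74 and 0.73), to Cpe (0.71 and 0.71) and to Lrp8 (0.65 and 0.63). Spock2 and Actg1 were closest to Scn3a (0.73 and 0.73), Spock2 and Tspan7 to Cd200 (0.69 and 0.67), and Tspan7 and Tsc22d1 to Pcdh17 (0.63 and 0.61). Of the Reelin pathway list, Reln was the single gene in the panel, and its r was 0.48 with Scn3a, 0.43 with Lrp8, 0.38 with Stmn2, 0.34 with Pcdh17 and 0.24 with Cpe.

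Cells were grouped on the panel without the 7 members, which gave 31 clusters at E15.5 and 27 at E9.5, so that a cluster's level of a member was not used to form it. Only 2 of the 27 neuron markers listed, Reln and Meis2, are in the panel, so no cluster could be named as neurons, and clusters are given by their leading genes. At E15.5, 9 clusters with 27.1% of the cells were above the section's Stmn2 level and held 95.9% of its counts. All 9 were also above the section's level of Scn3a and of Lrp8, and 8 of them for Tubb2b and for Cpe, but 7 for Cd200 and for Pcdh17. Intervals on cluster levels are 95% Poisson intervals and cover counting error only.

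Stmn2 was highest in cluster 28, with Tbx20 and Casz1 among its leading genes, with 161066 CPM (159206 to 162941) over 849 cells. Cluster 26, led by Scn7a and Rgs4, followed with 141534 CPM (140268 to 142808), and then cluster 2, led by Tox2, Meis2 and Spock2, with 129428 CPM (128965 to 129891) over 19712 cells. Cluster 23, led by Hand2 and Rgs4, had 126228 CPM (125188 to 127274) and cluster 31, led by Foxp1 and Nts, 121412 CPM (118260 to 124627). None of these 5 intervals overlap, so their order in this section is outside counting error. The lowest level, in cluster 1, was 181 CPM, under the 211 CPM of the blank codes there.

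Tubb2b had another order. It was highest in cluster 11, with Hoxa5 and Zic1 among its leading genes, with 74886 CPM (74121 to 75657), and in cluster 2 with 68466 CPM (68130 to 68804). In cluster 28, the highest for Stmn2, it had 41439 CPM, in cluster 26 23151 CPM and in cluster 23 11090 CPM. Cluster 22, led by Cdc20 with Cenpf and Fabp7 among its leading genes, had 20418 CPM of Tubb2b and 11967 CPM of Stmn2; Cdc20 and Cenpf act in cell division. Cluster 4, led by Pdlim3, Gja5 and Acta2, had 2095 CPM of Tubb2b (2041 to 2151) with 327 CPM of Stmn2, and over 100 µm away from Stmn2-rich cells the values were 2097 and 142 CPM.

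Scn3a was highest in clusters 2 and 11, with 7545 CPM (7434 to 7658) and 7419 CPM (7180 to 7665), whose intervals overlap. In 19 of the 31 clusters it lay under 2 times the blank level, more than for any other member. Cpe was highest in cluster 2 with 25973 CPM (25766 to 26181), followed by cluster 28 with 21475 CPM. Cd200 was highest in cluster 2 as well, with 11388 CPM (11251 to 11526), and Lrp8 in clusters 11 and 2, with 9300 CPM (9031 to 9574) and 9031 CPM (8909 to 9154).

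Pcdh17 was at 12818 CPM (12504 to 13138) in cluster 5, a group of shallow cells with a median of 25 counts, and at 12581 CPM (12437 to 12726) in cluster 2, which overlap. In cluster 23 with its Hand2 it had 627 CPM, and in cluster 26 2090 CPM, both under its section level of 2818 CPM while Stmn2 was 4.50 and 5.05 times its own section level there.

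Cpe, Cd200, Scn3a and Lrp8 also had levels in clusters outside the 9 Stmn2-rich ones. Cpe had 4952 CPM (4848 to 5057) in cluster 6, led by Cytl1, a gene known from cartilage, and Mgp, with 540 CPM of Stmn2. Cluster 20, with Lox and Unc5b among its leading genes, had 6584 CPM of Cd200 (6323 to 6853), 5248 CPM of Cpe (5015 to 5488) and 752 CPM of Scn3a (666 to 847), with 1037 CPM of Stmn2 and 178 CPM of Tubb2b. The mean blank code had 303 CPM there. Lrp8 had 3929 CPM (3051 to 4981) in cluster 30, 189 cells led by Slco1c1 and Car14. Cells over 100 µm from any cell with 10 or more Stmn2 counts kept such levels: Cpe had 4803 CPM in cluster 6, Cd200 7103 CPM in cluster 20 and Lrp8 4188 CPM in cluster 30.

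**Figure D3:**
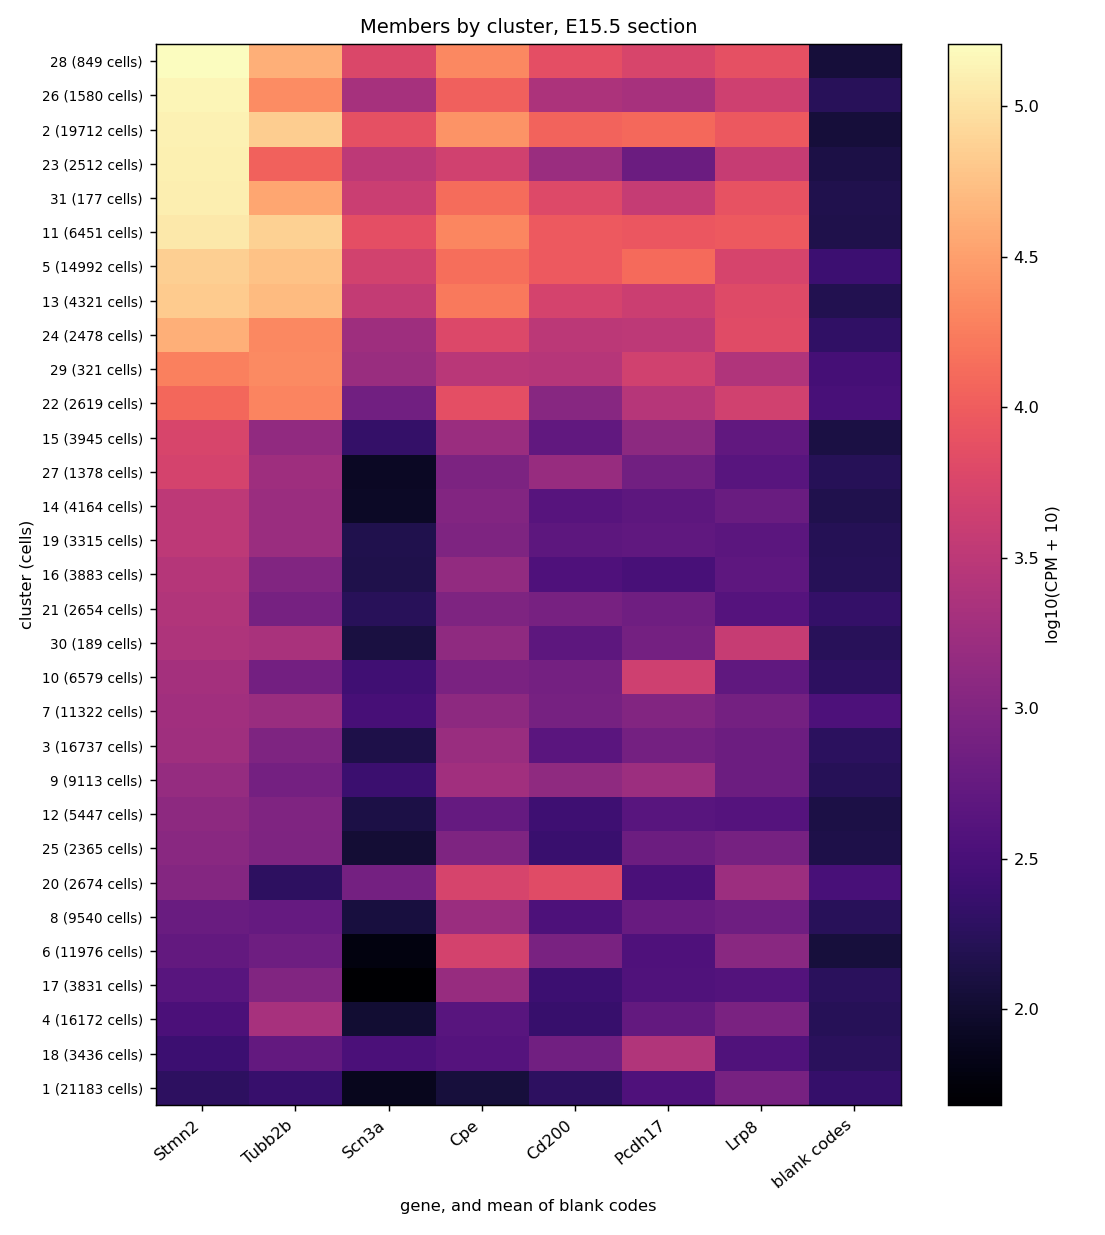
Members (columns, with the mean of the blank codes last) in the 31 clusters of the E15.5 section (rows, ordered by Stmn2, with the number of cells), coloured by log10(CPM + 10). The upper rows are bright for all members in clusters 28 and 2, and dimmer for Tubb2b, Cpe, Cd200 and Pcdh17 in cluster 23. Cd200 and Cpe stand out in cluster 20, Pcdh17 in cluster 10, and Lrp8 in cluster 30.

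Cell by cell, the other members had higher levels in cells with more Stmn2 counts. Levels here are CPM taken over the counts outside the 7 members. In the E15.5 section Tubb2b had 1450 in the 139062 cells without Stmn2, 31888 in cells with 2 to 4 Stmn2 counts and 79319 in cells with 10 to 19. Scn3a had 174 without Stmn2, where the mean blank code had 173, and 8253 in cells with 10 to 19 Stmn2 counts. Cpe had 1638 and 27524 in those cells, Cd200 710 and 12000.5, Pcdh17 1005 and 12452, and Lrp8 825 and 10439. All 6 were lower again in cells with 20 or more Stmn2 counts, where Tubb2b had 66337 and Lrp8 10067.5. The blank codes went between 149 and 177 over these groups, and the cells with 2 to 4 Stmn2 counts were shallow, with a median of 38 counts outside the members.

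Inside cluster 2 the levels differed less between these groups of cells. Tubb2b had 58288 in its 302 cells without Stmn2 and 91642 in its 5542 cells with 20 or more. Pcdh17 had 9931 and 17350 in those cells, and Scn3a 7330 and 9990. Outside the 9 Stmn2-rich clusters, Tubb2b had 1045 in cells without Stmn2 and 26162.5 in the 81 cells with 20 or more, and Scn3a 135 and 3137. With all cells thinned to 50 counts, 78.5% of cells with a Stmn2 count held Tubb2b, against 5.44% of cells without one. The shares were 52.6% against 7.0% for Cpe, 31.0% against 3.15% for Cd200, 28.2% against 4.12% for Pcdh17, 27.3% against 3.99% for Lrp8 and 22.9% against 0.772% for Scn3a.

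**Figure D4:**
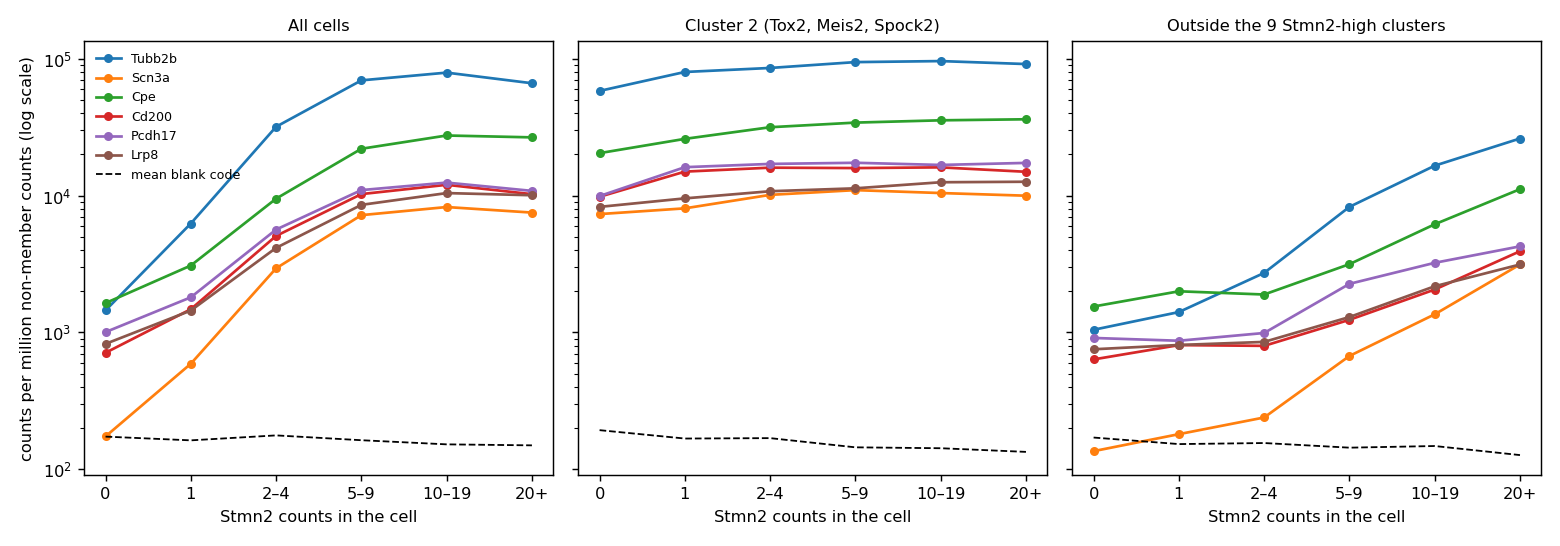
Level of the other 6 members (CPM over the counts outside the members, log axis) against the Stmn2 count of the cell in the E15.5 section, for all cells, for cluster 2 and for cells outside the 9 Stmn2-rich clusters; the dashed line is the mean blank code. Over all cells the 6 lines are highest at 10 to 19 Stmn2 counts; they are flatter in cluster 2, and Scn3a starts at the level of the blank codes in cells without Stmn2.

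Fabp7 and Meis2, which are no members, had other profiles over the same cells. Fabp7 had 755 without Stmn2, 12871 in cells with 5 to 9 Stmn2 counts and 7228 in cells with 20 or more. Meis2 had 7276, 41015 and 69219 in those groups. At E9.5 the groups with Stmn2 were small: in section 2 outside the low-Gnas areas, Cpe had 770 in 3280 cells without Stmn2 and 2853 in 27 cells with 2 to 4 counts, and Tubb2b 1126 and 2168.

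The gates on non-member genes asked which tissue cells hold the members: cells with 3 or more counts of endothelial genes (Pecam1, Cdh5, Kdr, Cldn5, Emcn), of glial genes (Fabp7, Slc1a3) or of mesenchyme genes (Prrx1, Col1a2, Dcn). Gate cells were summed per section and set against the other kept cells of the same section. The endothelial gate held 13155 cells at E15.5, and 35 and 434 in E9.5 sections 1 and 2. The mesenchyme gate held 45295 cells at E15.5, and 68 and 464 at E9.5.

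Pcdh17 was the member with high levels in endothelial-gate cells. At E15.5 the gate had 2762 CPM against 2825 CPM in other cells, a ratio of 0.978. With cells within 100 µm of a Stmn2-rich cell (10 or more Stmn2 counts) left out, the E15.5 gate had 2805 CPM against 695 CPM, a ratio of 4.03. In E9.5 section 1 the gate had 1131 CPM, which is 4 counts, against 231 CPM in other cells, and in E9.5 section 2 it had 2211 CPM (242 counts) against 380 CPM, ratios of 4.90 and 5.81. Outside the low-Gnas areas the gate had 1426 CPM (2 counts) against 310 CPM in E9.5 section 1, and 1804 CPM (127 counts) against 330 CPM in E9.5 section 2. The endothelial-like cluster 10 of the E15.5 section, led by Aplnr, Pecam1 and Cdh5, had 4598 CPM (4455 to 4745). Cluster 18, led by Gata5, Foxf1 and Ednra, had 2586 CPM (2433 to 2746), under the section level of 2818 CPM. At E9.5, Pcdh17 was highest in cluster 18, endothelial-like by Cldn5 and Emcn, with 4429 CPM (3615 to 5372), and in cluster 22, led by Gata5 and Tbx20, with 3389 CPM. All cells of cluster 22 lay in E9.5 section 2. Clusters 20, led by Dll4 and Gja4, and 23, led by Cdh5 and Pecam1, lay below both. In a coarser clustering (resolution 0.5) endothelial-like cluster 14, led by Cldn5 and Aplnr, had 4382 CPM. Endothelial-like cluster 12, led by Dll4 and Gja4, had 1525 CPM there.

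Over the 6 sums, edgeR's test did not call Pcdh17 in the endothelial gate: the log2 difference was 1.44 ± 0.60 (SE, n = 3 sections) with an adjusted p of 0.306. Without E9.5 section 1 the difference was 1.23, and without E9.5 section 2 it was 0.57. edgeR called 0 of the 7 members and 2.06% of the 291 genes tested as higher; 4 members had an unadjusted p under 0.05, and DESeq2 called 2, Tubb2b and Cpe, both lower, where it called 6.19% of genes higher and 4.12% lower, 10.3% in all. Away from Stmn2-rich cells, an alternative added after the data were seen, Pcdh17 was called with 2.33 ± 0.36 and an adjusted p of 0.029 in edgeR, where 1.72% of genes were called higher, and no other member was. That setting changes the E15.5 section only, and the cells it leaves out also held much Pcdh17. Other cells at E15.5 went from 53360 to 8314 Pcdh17 counts (2825 to 695 CPM), while the gate had 2762 and 2805 CPM. The call thus cannot be read apart from that choice of cells. A gate of 5 counts gave calls for Pcdh17 (higher) and Tubb2b (lower), where 9.62% of genes were called, and leaving out the E9.5 low-Gnas areas a call for Tubb2b (lower), where 8.25% were. Both settings left fewer than 20 gate cells in E9.5 section 1 and so also dropped that section, while dropping it alone gave 0 calls of members or other genes and 4 members with an unadjusted p under 0.05. The difference of the gate effect between the stages was -2.47 ± 0.71 on the log2 scale with an adjusted p of 0.988 in edgeR, which called 0.0% of genes, and 0.00071 in DESeq2, which called 1.72%, of them 1.37% higher and 0.344% lower.

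The other 6 members were lower in the endothelial gate at E15.5. Stmn2 had 11930 CPM in the gate against 30048 CPM in other cells, and Tubb2b 4782 against 14986 CPM. Away from Stmn2-rich cells these were 603 against 589 CPM for Stmn2 and 701 against 1165 CPM for Tubb2b. That setting leaves out the Stmn2-rich cells themselves, so the drop of Stmn2 in it is fixed by the choice of cells. Cluster 24 at E15.5, led by Cldn5, Rgs5 and Slco1c1, genes of brain vessels among them, lay within 100 µm of such cells for 92.7% of its cells and had 41714 CPM of Stmn2; in its 181 cells farther away Stmn2 had 1862 CPM and Lrp8 3464 CPM. Whether molecules of neighbouring cells enter these values was not tested.

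**Figure D5:**
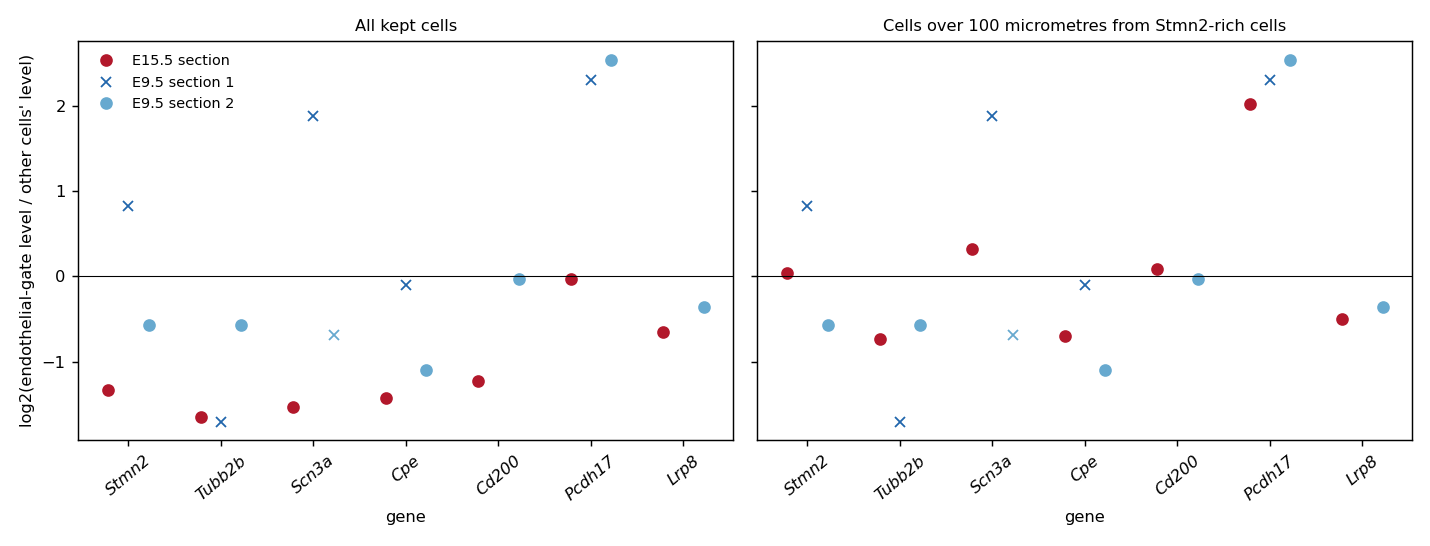
log2 ratio of the level in endothelial-gate cells over that in other cells of the same section, for all kept cells and for cells over 100 µm from Stmn2-rich cells; crosses mark gate sums under 20 counts, and genes with 0 gate counts are not drawn. At E15.5 Pcdh17 lies near 0 over all cells and above 0 away from Stmn2-rich cells, and in both E9.5 sections it lies above 0 in both panels.

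In the mesenchyme gate all 7 members were lower than in other cells at E15.5. Stmn2 had 3490 CPM in the gate against 41977 CPM in other cells, Tubb2b 1354 against 20953 CPM and Cpe 1828 against 8029 CPM. Away from Stmn2-rich cells most of these gaps closed or turned. That setting leaves out the Stmn2-rich cells with their counts of all members. The fall of Stmn2 in other cells was thus fixed by the choice of cells and is no finding. In that setting Stmn2 had 656 CPM in the E15.5 gate against 541 CPM in other cells, Cpe 1746 against 1409 CPM and Cd200 844 against 560 CPM. Scn3a had 171 against 129 CPM there, near the level of the blank codes, and Pcdh17 947 against 892 CPM. Tubb2b, with 864 against 1309 CPM, and Lrp8, with 734 against 813 CPM, were lower in the gate in both settings.

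At E9.5 Stmn2 had 200 CPM in the gate (3 counts) against 1008 CPM in section 1. In section 2 it had 182 CPM (26 counts) against 626 CPM. The mean blank code had 130 and 109 CPM in these gate cells. Tubb2b had 933 CPM (14 counts) against 877 CPM in section 1, and 971 CPM (139 counts) against 722 CPM in section 2. Outside the low-Gnas areas this turned, with 933 against 1708 CPM of Tubb2b in section 1 and 1060 against 1167 CPM in section 2. In the mesenchyme gate edgeR called 0 of the 7 members, among 0.341% of the 293 genes called; 3 members had an unadjusted p under 0.05, and DESeq2 called Stmn2 lower (adjusted p = 0.0070), where it called 6.39% of genes higher and 1.83% lower, 8.22% in all. With a gate of 5 counts edgeR called Stmn2 (lower), where 2.73% of genes were called. For Tubb2b the gate effect differed between the stages by -4.50 ± 1.16 on the log2 scale, with an adjusted p of 0.126 in edgeR and 2.2e-09 in DESeq2, which called 4.63% of genes, of them 0.386% higher and 4.25% lower. DESeq2 also called this difference for Scn3a and Cd200.

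The glial gate held 5154 cells at E15.5, 0 in E9.5 section 1 and 19 in E9.5 section 2, so no test over sections was made at 3 counts and the values of the E15.5 section are a description. With 2 counts as the gate minimum, 84 gate cells of E9.5 section 2 and 8520 of the E15.5 section could be tested: edgeR called 0 of the 7 members and 0.0% of the 294 genes, and Tubb2b and Scn3a had an unadjusted p under 0.05. Stmn2 had 80826.5 CPM in the gate against 25821 CPM in other cells, and 83.5% of gate cells held a count. Tubb2b had 35611 against 12942 CPM, Cpe 13424 against 5463 CPM and Lrp8 5495 against 2244 CPM. Pcdh17 differed least, with 3561 against 2787 CPM. The gate cells lay in the Stmn2-rich territory: away from Stmn2-rich cells 342 of the 5154 remained. In those, Stmn2 had 2492 CPM against 583 CPM in other cells, Tubb2b 6867 against 1094 CPM and Lrp8 2929 against 770 CPM. Scn3a, with 6 counts, had 114 against 147 CPM, both under the blank codes there. In cluster 13, led by Fabp7 and Slc1a3, Stmn2 had 67967 CPM and, in its 163 cells over 100 µm from Stmn2-rich cells, 16159 CPM. Values away from Stmn2-rich cells leave those cells out by definition, so their lower Stmn2 levels are no finding.

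At E9.5 Stmn2, Lrp8 and Cpe were high together in 1 cluster, and the other members were highest elsewhere. Stmn2 was highest in cluster 9, with Mecom and Mfsd2a among its leading genes, with 4015 CPM (3375 to 4741), a cluster with 263 of its 274 cells in section 2. Lrp8 was highest there too, with 2224 CPM, and Cpe had its second highest level there, with 5402 CPM. In the 151 cells of cluster 9 outside the low-Gnas areas, Stmn2 had 3623 CPM, Lrp8 2291 CPM and Cpe 4369 CPM. Scn3a lay under 2 times the blank level in 25 of the 27 clusters. The highest Scn3a level, 348 CPM, was in cluster 3, where the mean blank code had 441 CPM. In the 142 cells of cluster 21 Scn3a had 306 CPM, against 121 CPM of the mean blank code. That level lies under the highest blank code of E9.5 section 2 as a whole (380 CPM), which holds 136 of these cells.

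Tubb2b was highest in cluster 6, with Fabp7 and Crabp1 among its leading genes, with 4059 CPM (3549 to 4621), at 2441 CPM in section 1 and 4200 CPM in section 2. Of its 315 cells 302 lay outside the low-Gnas areas, with 4061 CPM. With the coarser clustering at resolution 0.5, which gave 19 clusters, cluster 5 of 593 cells was the highest for Stmn2 (1879 CPM), Tubb2b (2889 CPM) and Lrp8 (1890 CPM), and the second highest for Cpe (2725 CPM). Its leading genes include Fabp7 and Crabp1, as in cluster 6, and Mfsd2a, as in clusters 6 and 9. Outside the low-Gnas areas, 461 of its cells had 1333 CPM of Stmn2 and 3435 CPM of Tubb2b.

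Cpe was highest in cluster 7, with 11836 CPM (10143 to 13731); its Cpe level was 2790 CPM in section 1 and 14752 CPM in section 2. Of the cells of cluster 7, 99.7% lay in low-Gnas areas. Tubb2b, Scn3a, Cd200, Pcdh17 and Lrp8 had 0 counts in its 295 cells, which allows up to 250.9 CPM by the 95% Poisson interval. Pcdh17 in clusters 18 and 22 of the E9.5 sections had 3967 and 1383 CPM outside the low-Gnas areas, over 52 and 37 cells.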

How the data were processed

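MERFISH counts of 296 panel genes and 19 blank codes per segmented cell were deposited by the authors for 3 sections, with cell positions and volumes, whose unit is not stated in the file headers and was read as micrometres. The submitters' processing notes name Scanpy and Seurat without a role. Settings of decoding and segmentation were not stated in these sources. Here the 7 members, the gene lists and the tests were chosen with earlier results of these data known. Cells with at least 10 panel counts were kept. Counts were summed per section, or per section and gate, and tested with edgeR 4.0.16 (quasi-likelihood, TMM, genes with at least 30 counts, Benjamini-Hochberg over all genes tested, threshold 0.05), with section as a block for gates; DESeq2 1.42.0 was an alternative. edgeR was tested on simulated data. Sections of separate E9.5 embryos are the replicates, and cells are not. Cells were clustered without the members on 289 genes (30 principal components, 15 neighbours, leidenalg 0.10.2 at resolution 1). The text names the members, the 2 most alike non-member genes of each across E15.5 tiles, panel genes of the fixed lists and the leading genes of clusters. Hand2 is in the fixed lists, while Hoxa5 and Gnas were added after their values were seen. Alternatives changed the scaling, the tool, the cell, gene and gate minimum, the blank level and the tile size, and left out large cells or a section. The low-Gnas areas, the cells near Stmn2-rich cells and DESeq2 for the difference of gate effects between stages were added after seeing the data. Doublets were not called. Intervals cover counting error only, at 95%.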

Additional observations from a re-analysis of the deposited data

Results flagged for a closer look

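For Pcdh17 the ratio of endothelial-gate cells to other cells was 0.978 in the E15.5 section, against 4.90 in E9.5 section 1 and 5.81 in E9.5 section 2, so the stages lay on opposite sides of 1. The test of this difference gave an adjusted p of 0.988 in edgeR and 0.00071 in DESeq2. Away from Stmn2-rich cells the E15.5 ratio was 4.03, and outside the low-Gnas areas that of E9.5 section 2 was 5.47. The first of these settings lowers Pcdh17 in the E15.5 other cells by the choice of cells, from 2825 to 695 CPM.

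For Tubb2b the ratio of mesenchyme-gate cells to other cells was 0.0646 in the E15.5 section. It was 1.06 in E9.5 section 1 (14 gate counts) and 1.34 in E9.5 section 2 (139 gate counts). The test of this difference gave an adjusted p of 0.126 in edgeR and 2.2e-09 in DESeq2. Away from Stmn2-rich cells the E15.5 ratio was 0.66, and outside the low-Gnas areas the ratios were 0.546 in E9.5 section 1 and 0.909 in E9.5 section 2, so that with both left out all lay under 1.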

How the results depend on the processing

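Of the 7 members, edgeR called 6 between the stages, where it called 9.46% of genes higher. With cell volume as the library size it called 2, where 3.38% of genes were called higher. With the mean blank code subtracted it called 3, where 5.28% were, and that step left no E9.5 counts of Scn3a. In the endothelial gate edgeR called 0 members and 2.06% of genes. DESeq2 called 2 members and 10.3% of genes, and a gate of 5 counts in edgeR gave 2 and 9.62%. Without the E9.5 low-Gnas areas edgeR called 1 member and 8.25% of genes. Without cells near Stmn2-rich cells it called 1 member, where 1.72% of genes were called higher. The gate of 5 counts and the low-Gnas setting also dropped E9.5 section 1, which had under 20 gate cells. In the mesenchyme gate edgeR called 0 members and 0.341% of genes. DESeq2 called 1 member and 8.22% of genes, and a gate of 5 counts in edgeR gave 1 and 2.73%. For the difference of gate effects between stages edgeR called 0 members and 0.0% of genes in both gates. DESeq2 called 1 member and 1.72% of genes in the endothelial gate, and 3 and 4.63% in the mesenchyme gate. Signs turned for members that were not called: away from Stmn2-rich cells the log2 difference was 0.077 for Scn3a in the endothelial gate, and 0.24 for Tubb2b, 0.53 for Scn3a and 0.81 for Cd200 in the mesenchyme gate, where Cd200 also had 0.10 with DESeq2, 0.40 with blanks subtracted and 0.16 with a gate of 5 counts. The cause was not tested. Leaving out either E9.5 section left no residual degrees of freedom between stages, and the log2 difference ranged between 5.11 and 5.83 for Stmn2, 4.00 and 4.39 for Tubb2b, 3.75 and 4.12 for Scn3a, 2.28 and 2.29 for Cpe, 2.32 and 3.25 for Cd200, 2.49 and 3.38 for Pcdh17, and 1.48 and 1.80 for Lrp8; with either section left out, the gates had 0 members called, and the endothelial difference of Pcdh17 ranged between 0.57 and 1.23. For the glial gate, the E15.5 ratio of Stmn2 was 3.13, 3.24 with a gate of 2 counts, 2.74 with 5, 3.14 without large cells and 4.27 away from Stmn2-rich cells, where that of Scn3a was 0.776 against 2.18; its test was run with a gate of 2 counts only, in edgeR, and its other planned tests were not run. No paired analysis was possible because the E9.5 and E15.5 sections come from different embryos. The 19 counts of Pcdh17 and 6 of Scn3a in E9.5 section 1 limit what that section can show.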
